A study of Mus musculus with 6 samples.

Results

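The 10 genes described here are targets of the transcription factor ATF4 that serve amino acid and one-carbon metabolism or hold back growth when amino acids run short: Phgdh, Psat1, Psph, Shmt2, Mthfd2, Asns, Aldh18a1, Chac1, Sesn2 and Ddit4. They were taken by symbol from the 22180 genes that could be named on the array, and all 10 were found, each with 1 transcript cluster, the set of probes that the array summarizes into a value for that gene. Their RNA was measured in the whole pancreas of 6 male mice of 6 months, with 1 array per pancreas. The 3 control animals carried the Cre transgene alone (Pdx1Cre), with both wild-type copies of Sirt1, a gene for a NAD-dependent protein deacetylase. The 3 Sirt1-deficient animals carried the same transgene and the floxed exon 4 allele on both chromosomes (Pdx1Cre;Sirt1ex4F/F). Cre, which cuts out exon 4 and leaves a truncated Sirt1, was driven by a fragment of the Pdx1 promoter that is active in most islet cells and in a mosaic of exocrine cells, so whole pancreas also holds cells with an intact Sirt1. The values were log2 expression values after Robust Multi-array Average (RMA) normalization, in which 1 unit is a doubling.

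ATF4 is the effector of the integrated stress response. Kinases that sense unfolded protein in the endoplasmic reticulum (ER), missing amino acids, heme loss or viral RNA phosphorylate the initiation factor eIF2 alpha, which slows translation in general but favours that of the Atf4 mRNA. ATF4 protein then turns on genes that make, import and charge amino acids, and genes that restrain the growth kinase complex mTORC1. Acinar cells, which make up most of the pancreas, spend large amounts of amino acids on digestive enzymes, and this is the tissue in which the response is read here. The level of the Atf4 mRNA does not tell how much of it is translated.

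The DNA element through which ATF4 acts, the C/EBP-ATF response element, was looked for in the promoters of the 10 genes, to show which of them carry its letters near the start. The letters TGATGNAA and TGACGNAA were searched on both strands, from 250 bases before to 50 bases after each annotated start, in RefSeq sequence of GRCm38.p6. Both Asns and Chac1 held a match, and the other 8 genes had none in this window, which says nothing of sites farther away. One or the other of the forms occurred in 5.48% of all 32851 promoter windows, TGATGNAA in 3.97% and TGACGNAA in 1.59%. The matches are given below from 5′ to 3′ along the strand of the gene, with the matched letters in capitals.
Asns, 23 to 16 bases before the start (chr6:7693214-7693243, minus strand): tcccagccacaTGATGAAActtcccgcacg
Chac1, 193 to 186 bases before the start, element on the opposite strand (chr2:119351038-119351067, plus strand): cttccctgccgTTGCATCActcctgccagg
Chac1, 250 to 243 bases before the start, at the edge of the window (chr2:119350992-119351010, plus strand): TGACGCAAtctgactcgcc
A match of letters is a description of the sequence and was not tested for binding. Over the 6 pancreata, Asns was the steadiest and Chac1 the most variable of the 10 genes.

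The quality of the arrays and the tissue were checked first. Pairs of arrays correlated with r from 0.974 to 0.984 over the clusters. All 11 measured acinar markers stood above the limit for dim genes on every array (a log2 value of 4.66, the 95th percentile of olfactory receptor genes), with a list mean of 11.84 to 11.87 in controls and 11.87 to 11.88 in Sirt1-deficient pancreata. None of the 11 passed the test of the genotypes. Sirt1 itself read 5.84, 5.78 and 5.80 in controls and 5.59, 5.69 and 5.83 in Sirt1-deficient pancreata, which overlap. The log2 fold change was -0.11 (standard error 0.11, unadjusted p = 0.343 from limma). The study reported reduced Sirt1 expression by quantitative PCR in total pancreas and in islets, a fall that this cluster did not clearly show. The cluster does not separate exon 4 from the rest of the gene. Its values do not check the labels, and the reason for the difference from the PCR was not tested. In RNA from a whole organ, fewer cells of a type and less RNA per cell cannot be told apart.

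None of the 10 ATF4 targets was called different between Pdx1Cre;Sirt1ex4F/F and Pdx1Cre pancreata at an unadjusted p under 0.01 from limma, the threshold of the study. Over all genes tested this threshold called 1.63%, with 0.739% higher and 0.888% lower in Sirt1-deficient pancreata, and the count of 0 of 10 is read against these shares. After Benjamini-Hochberg adjustment 0.0135% of all genes passed, and no ATF4 target was among them. At an unadjusted p under 0.05, Sesn2 alone was lower and none was higher, where 3.76% of all genes were lower and 2.89% higher. The fold changes, always Sirt1-deficient minus control, ran from -0.35 to 0.17 on the log2 scale, with 6 of the 10 negative. Their median was -0.05, beside a median of -0.02 over all genes. All 10 genes stood above the limit for dim genes on every array. With 3 pancreata per group, the exact permutation test cannot give a p under 0.10.

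**Figure D1:**
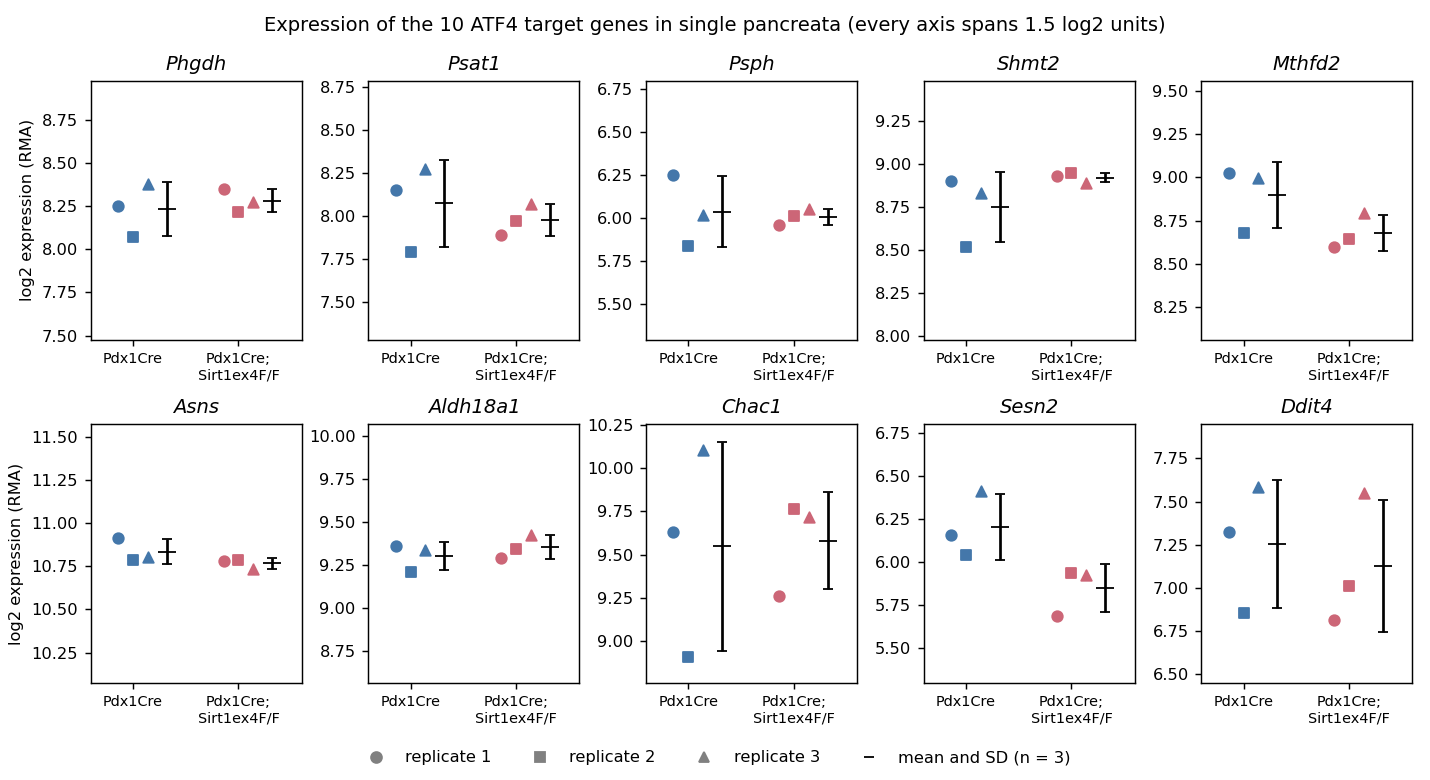
Log2 expression (RMA) of the 10 ATF4 targets in each pancreas, with the Pdx1Cre group on the left (blue) and the Pdx1Cre;Sirt1ex4F/F group on the right (red) of each panel, symbols for the replicates, and a bar for the mean and SD (n = 3). The groups overlap in every panel but that of Sesn2, and the control square, pancreas 2, is the lowest control point in all 10.

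Phgdh, Psat1 and Psph encode the enzymes that turn the glycolytic intermediate 3-phosphoglycerate into serine, in this order. Phgdh, the first and committed step, read 8.25, 8.07 and 8.38 in control pancreata 1 to 3 and 8.35, 8.22 and 8.28 in Sirt1-deficient pancreata 1 to 3. All Sirt1-deficient values lay within the control range. Its log2 fold change was 0.05 with a 95% interval of -0.21 to 0.31 (standard error 0.12, adjusted p = 0.979 from limma). For Psat1, the transaminase of the second step, the control values were 8.15, 7.79 and 8.28 and the Sirt1-deficient values 7.89, 7.97 and 8.07. The Sirt1-deficient values again fell inside the control range, with a log2 fold change of -0.10 (interval -0.41 to 0.22). Psph, the phosphatase that releases free serine, read 6.25, 5.84 and 6.02 against 5.96, 6.01 and 6.05, a log2 fold change of -0.03 (interval -0.31 to 0.25). In all 3 genes of serine synthesis the control pancreata were spread more widely than the Sirt1-deficient ones, for Psph with an SD of 0.21 against 0.05.

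Shmt2 and Mthfd2 act in the mitochondrion, where SHMT2 splits serine into glycine and a one-carbon unit and MTHFD2 oxidizes that unit on its folate carrier. Their estimates pointed in opposite directions. Shmt2 read 8.90, 8.52 and 8.84 in controls and 8.93, 8.95 and 8.89 in Sirt1-deficient pancreata. The Sirt1-deficient values lay close together (SD 0.03, against 0.20 in controls), and 2 of the 3 were above every control value. Control pancreas 2 was the lowest of all 6. The log2 fold change was 0.17 (standard error 0.12, interval -0.11 to 0.45, adjusted p = 0.869 from limma), and 0.05 without that pancreas. Mthfd2 read 9.03, 8.68 and 8.99 in controls and 8.59, 8.64 and 8.80 in Sirt1-deficient pancreata. Here 2 of the 3 Sirt1-deficient values were below every control value, and the third lay between control pancreas 2 and the others. The log2 fold change was -0.22 (standard error 0.13, interval -0.51 to 0.06, adjusted p = 0.829 from limma), and -0.33 without control pancreas 2, still short of the threshold.

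Asns encodes asparagine synthetase, which makes asparagine from aspartate and glutamine and whose promoter element is printed above. Asns read 10.92, 10.79 and 10.80 in controls and 10.78, 10.79 and 10.73 in Sirt1-deficient pancreata. The 6 values spanned 0.19 on the log2 scale, the smallest span of the 10 genes. The log2 fold change was -0.07 (standard error 0.10, interval -0.30 to 0.16, adjusted p = 0.955 from limma). Aldh18a1, whose product makes the precursor of proline and ornithine from glutamate, read 9.36, 9.21 and 9.33 against 9.29, 9.34 and 9.42. The groups overlapped, and the log2 fold change of 0.05 had an interval of -0.18 to 0.29.

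Chac1 encodes an enzyme that degrades glutathione, releasing its gamma-glutamyl part as 5-oxoproline, and is strongly induced by ATF4 in cultured cells. It read 9.63, 8.91 and 10.11 in controls and 9.26, 9.77 and 9.72 in Sirt1-deficient pancreata. Control pancreas 2 was the lowest and control pancreas 3 the highest of all 6, so the Sirt1-deficient values lay between them. These controls differed 2.30-fold from each other, while the group means differed 1.02-fold. The log2 fold change of 0.03 (standard error 0.27) had the widest interval of the 10, from -0.57 to 0.64, and so neither a fall to 0.674 of the control level nor a rise to 1.56 times that level lies outside it.

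Sesn2 and Ddit4 encode inhibitors of mTORC1: sestrin 2 binds leucine and acts through the GATOR complexes, and REDD1, the product of Ddit4, acts through the TSC complex. Sesn2 read 6.16, 6.04 and 6.41 in the control (6.20 ± 0.19, SD, n = 3) and 5.69, 5.94 and 5.92 in Sirt1-deficient pancreata (5.85 ± 0.14, SD, n = 3). No other of the 10 genes had groups without overlap, which 11.7% of the genes tested had. Its Sirt1-deficient mean was 1.28-fold below the control mean, which is -0.35 on the log2 scale (standard error 0.13, interval -0.65 to -0.06). The unadjusted p was 0.0242 and the adjusted p was 0.67 with limma, and a 2-sided exact permutation test gave p = 0.1. This misses the threshold. Among the alternatives it passed with array weights only (-0.42), and the estimate was -0.25 without control pancreas 3. Ddit4, which glucocorticoids and hypoxia also induce, read 7.32, 6.85 and 7.59 against 6.81, 7.01 and 7.55. The groups covered nearly the same range, and the fold change of -0.13 (standard error 0.22, interval -0.63 to 0.37) was smaller than the SD of either group, 0.37 and 0.38.

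**Figure D2:**
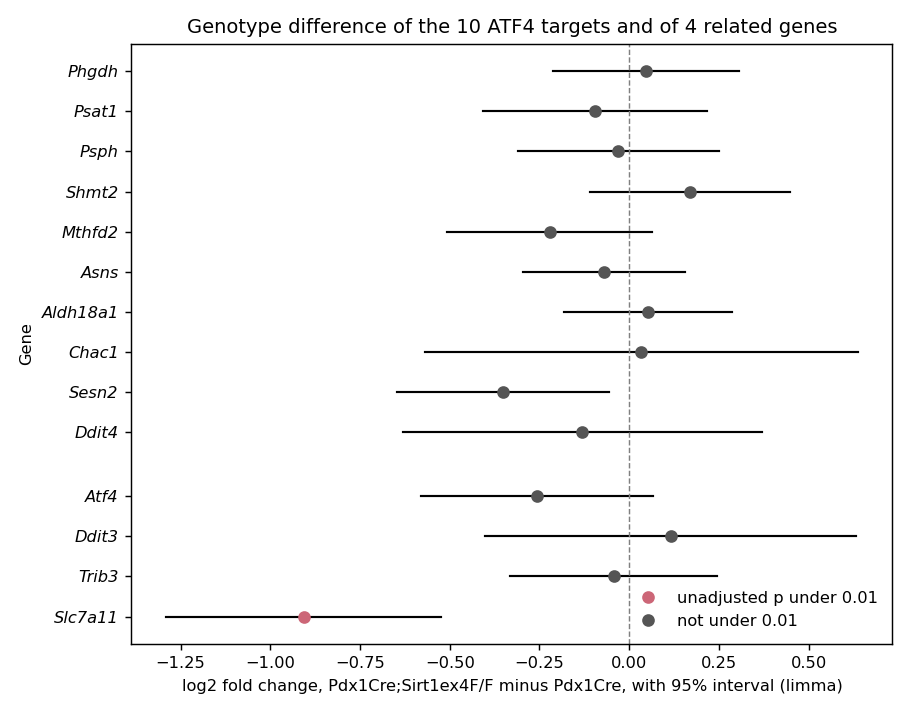
Log2 fold change of each gene (horizontal axis, Pdx1Cre;Sirt1ex4F/F minus Pdx1Cre) with its 95% interval from limma, for the 10 ATF4 targets and, below the gap, Atf4, Ddit3, Trib3 and Slc7a11. The interval of Sesn2 ends at -0.06, those of the other 9 targets span 0, and Slc7a11 is the only gene drawn in red, at an unadjusted p under 0.01.

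The 10 genes varied to unequal degrees between pancreata of a genotype. Within the groups, the SD of Chac1 was 0.47 and that of Ddit4 0.38, and only 0.48% and 1.29% of the 12669 genes above the limit for dim genes had a larger one. Asns and Aldh18a1 stood at the other end, with SDs of 0.05 and 0.07 that 95.2% and 88.1% of those genes exceeded. The remaining 6 genes had SDs from 0.12 to 0.19, beside a median of 0.14 over the genes above the limit. In 9 of the 10 genes the control SD was larger than the Sirt1-deficient SD, the exception being Ddit4. The same held in 55.8% of all genes tested.

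The position of control pancreas 2 was common to the 10 genes, while the highest control was pancreas 3 in 5 of them and pancreas 1 in the others. Control pancreas 2 was the lowest of the 3 controls in all 10 genes, and the lowest of all 6 pancreata in 6 of them: Phgdh, Psat1, Psph, Shmt2, Aldh18a1 and Chac1. This array was the lowest control in 52.2% of the genes above the limit for dim genes and in 41.2% of all genes. In the values as deposited, the order was not particular to the 10 genes. In the 8 further pathway lists described below it was the lowest control in 67 of 99 genes (67.7%). The lists ran from 1 of 7 upstream genes to 10 of 11 tRNA synthetases. After each array was centred on its median, the count for the ATF4 targets was again 10 of 10, beside 64.1% of the genes above the limit. After a second quantile normalization it was 8 of 10, beside 37.3%. The 8 pathway lists then ran from 6 of 18 genes around mTORC1 (33.3%) to 5 of 8 amino acid transporters (62.5%), with 5 of 11 tRNA synthetases. The mean of the 10 genes, each centred on its own mean, was 0.11, -0.21 and 0.19 in controls and -0.13, -0.02 and 0.06 in Sirt1-deficient pancreata. Without control pancreas 2 the median fold change was -0.18, Chac1 turned to -0.29, and still no gene passed at p under 0.01.

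**Figure D3:**
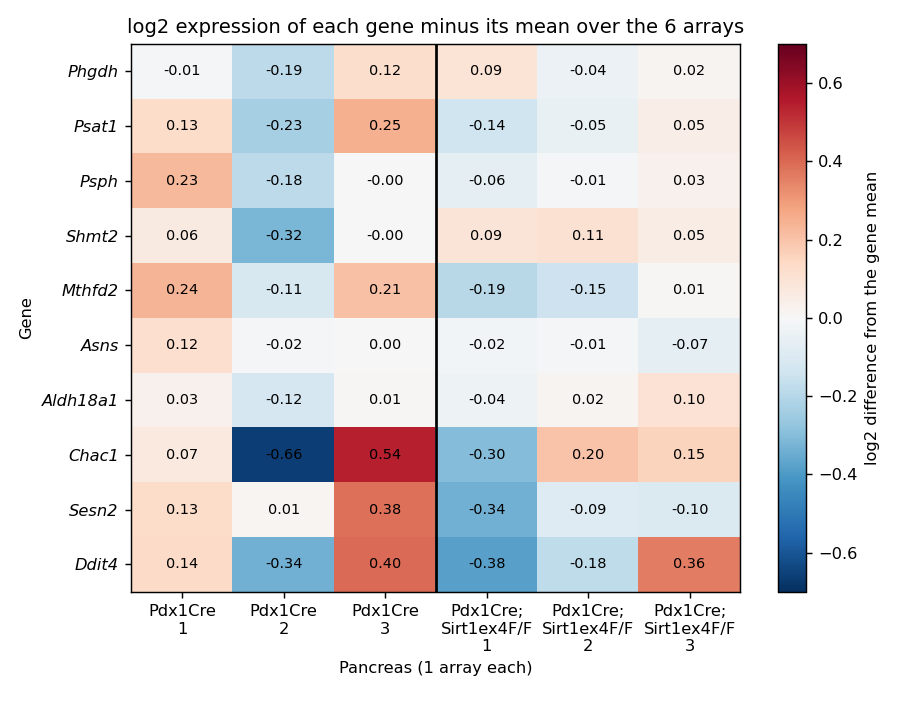
Log2 expression of each of the 10 genes minus its mean over the 6 arrays (colour and printed value), with genes in rows and single pancreata in columns, the 3 Pdx1Cre animals left of the line and the 3 Pdx1Cre;Sirt1ex4F/F animals right of it. The column of Pdx1Cre pancreas 2 is below the gene mean in every row but Sesn2, down to -0.66 for Chac1.

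The list means of 3 sets of cell type markers were also lowest among the controls in pancreas 2. By single genes, it was the lowest control in 9 of 12 endocrine, 5 of 8 endothelial and 4 of 6 duct markers. These counts stand beside the 52.2% of genes above the limit for dim genes that were lowest among controls in pancreas 2. For islet endocrine markers the list mean was 6.97 there, against 7.29 and 7.40 in control pancreata 1 and 3, and it ran from 6.80 to 7.04 in Sirt1-deficient pancreata. Of the 12 endocrine markers measured, 10 stood above the limit for dim genes on every array. None passed as higher in Pdx1Cre;Sirt1ex4F/F, and 3 passed as lower, where 0.739% of all genes tested were higher and 0.888% lower. These 3 were Ppy, the islet hormone pancreatic polypeptide (log2 fold change -0.83), Slc2a2, the beta cell glucose transporter (-0.57), and Isl1, an islet transcription factor (-0.51). For endothelial markers the list mean was 5.90 in control pancreas 2, against 6.05 and 6.07 in the other controls. It was higher in each of the Sirt1-deficient pancreata, from 6.15 to 6.18. Of the 8 markers 1 passed as higher, the endothelial sialomucin gene Emcn (log2 fold change 0.44), where 0.739% of all genes tested did. For duct markers it was 6.54, against 6.69 and 6.60, and none of 6 passed. Krt19 had the smallest p of these, with a log2 fold change of 0.26 (unadjusted p = 0.0322, adjusted p = 0.708 from limma).

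Other markers had another order. The acinar list mean ran from 11.84 to 11.88 over the 6 arrays. The transcription factor gene Ptf1a had the smallest p of that list, with a log2 fold change of 0.31 (unadjusted p = 0.0147, adjusted p = 0.64 from limma). None of 8 fibroblast markers passed, but all 8 fold changes were negative, where 54.95% of all genes tested were. Their median was -0.18, and the smallest p was that of Lum (log2 fold change -0.29). Fold changes were also negative in 10 of 12 endocrine and 8 of 9 immune markers. In the other lists they were negative in 3 of 6 duct, 3 of 8 endothelial, 4 of 11 acinar and 2 of 6 adipocyte markers. None of 9 immune markers passed (smallest p for Csf1r, log2 fold change -0.28), and none of 6 adipocyte markers (smallest p for Retn, log2 fold change 0.26). Only 2 of the 9 immune and 4 of the 6 adipocyte markers stood above the limit for dim genes on every array. Immediate-early genes, which respond rapidly to many stimuli, had centred means of 0.39, 0.26 and 0.02 in controls and -0.25, -0.18 and -0.24 in Sirt1-deficient pancreata. All 18 were negative, where 54.95% of all genes tested were. Of the 18, 4 passed as lower, where 0.888% of all genes tested did: Fos (-0.87), Egr1 (-1.91), Dusp1 (-0.72) and Ccn1 (-0.73). Fos was below the limit for dim genes in all Sirt1-deficient pancreata (3.97, 4.46 and 4.05) and in control pancreas 3 (4.59). Egr1 was widely spread in controls, with 8.15, 7.14 and 5.30, against 5.04, 4.73 and 5.09 in Sirt1-deficient pancreata. The part of these cell types and genes in the values of the 10 ATF4 targets was not tested.

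For the 3 genes with the largest span over the arrays, the genes with the closest profile were sought, by the root mean square difference of the centred log2 values over the 6 arrays. Among 18688 candidates, the closest to Chac1 were Chgb (difference 0.0964), Xlr3a (0.105) and Ddit3 (0.113). Chgb encodes the secretory granule protein chromogranin B and is one of the islet endocrine markers read above. Xlr3a is one of a family of similar X-linked genes, and Ddit3 encodes the stress transcription factor CHOP. Ddit3 read 6.00, 5.28 and 6.17 in controls and 5.60, 6.14 and 6.06 in Sirt1-deficient pancreata. As in Chac1, control pancreas 2 was the lowest, control pancreas 3 the highest and Sirt1-deficient pancreas 1 the lowest of its group. Of the other ATF4 targets, Ddit4 came 150th and Psat1 250th in closeness to Chac1, Trib3 came 398th, and Atf4 itself 15261st. The closest to Ddit4 were the olfactory receptor genes Olfr9 and Olfr851, both below the limit for dim genes, and Rrp15 (0.0956), of ribosomal RNA processing. The closest to Sesn2 were Rngtt (0.0559), the mRNA capping enzyme, Zfp428 and Kcnd3os. Zfp428 was below the limit for dim genes on every array, and Kcnd3os on every array but that of control pancreas 3 (4.70). Among the 10 genes Mthfd2 came nearest to Sesn2, as the 327th. The closeness over 6 arrays is a description and was not tested.

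**Figure D4:**
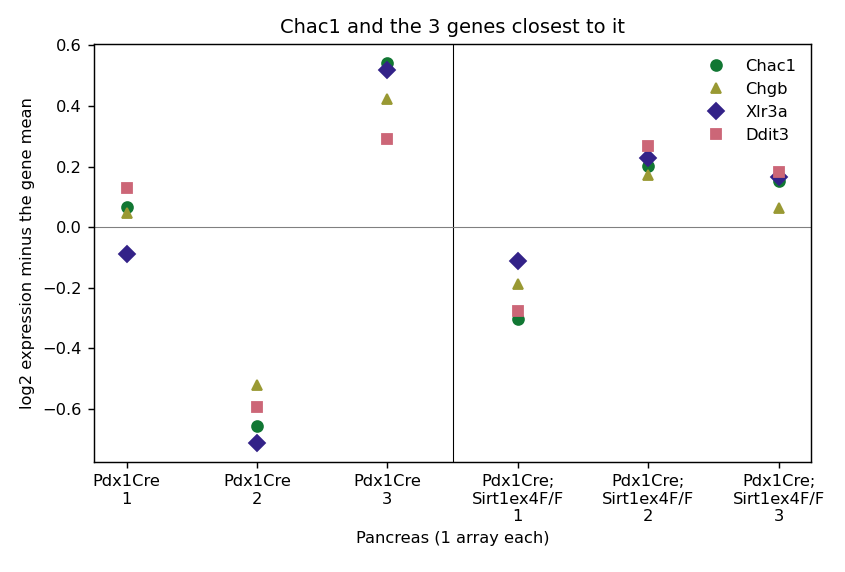
Log2 expression minus the gene mean (vertical axis) in each of the 6 pancreata for Chac1, the target with the largest span, and the 3 genes with the smallest root mean square difference from it, Chgb, Xlr3a and Ddit3. In all 4 genes Pdx1Cre pancreas 2 is the lowest point, and the Pdx1Cre;Sirt1ex4F/F points lie between those of Pdx1Cre pancreata 2 and 3.

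The rest of the pathway was read from 8 further lists of 111 entries, of which 99 genes had a cluster with their symbol alone. At the threshold of 0.01, 1 of these 99 genes was higher and 2 were lower, and 96 did not pass. Over all genes tested, 0.739% were higher and 0.888% lower. At p under 0.05, 2 of the 99 were higher and 9 lower, where 2.89% of all genes were higher and 3.76% lower. None of the 99 passed after adjustment over all genes tested. Their median log2 fold change was -0.06, and 65 (65.7%) were negative, as were 54.9% of all genes tested.

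Upstream, none of 7 genes from the eIF2 alpha kinases to ATF4 passed. Atf4 read 7.57, 7.46 and 7.16 in controls and 7.004, 7.35 and 7.07 in Sirt1-deficient pancreata, which overlap, and the log2 fold change was -0.26 (standard error 0.14, adjusted p = 0.821 from limma). Eif2ak3, which encodes the ER stress kinase PERK, had the smallest p of this list. Its values of 8.52, 8.47 and 8.40 against 8.27, 8.12 and 8.23 did not overlap, and the fold change was also -0.26 (standard error 0.10, adjusted p = 0.709 from limma). Of 13 other regulators and signalling proteins under ATF4 none passed, with a median of -0.01. Ddit3 had a fold change of 0.12 (standard error 0.23), Trib3, a pseudokinase that binds ATF4, one of -0.04 (standard error 0.13), and Vegfa, the angiogenic factor, the smallest p of the list at -0.19 (adjusted p = 0.861 from limma).

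Among 8 amino acid transporters 1 was lower and none higher. This was Slc7a11, which encodes the cystine and glutamate exchanger. Slc7a11 read 8.25, 7.72 and 8.15 in controls and 6.998, 7.42 and 6.992 in Sirt1-deficient pancreata, with no overlap. The fold change on the log2 scale was -0.91 (standard error 0.17), with p = 0.000414 and adjusted p = 0.236 by limma and p = 0.1 by the exact permutation test. Without each array in turn it lay between -1.07 and -0.80 and passed each time. The other cluster of Slc7a11 read 1.99 or less on every array, below the limit for dim genes, and the mean of both clusters gave -0.54, which also passed. Of 11 cytosolic aminoacyl-tRNA synthetases, which load amino acids onto tRNA, none passed, and 10 were negative with a median of -0.17, where 54.9% of all genes tested were negative. Cars, for cysteine, had the smallest p of this list, with a fold change of -0.36 (standard error 0.13, adjusted p = 0.65 from limma), and its groups did not overlap. The centred mean of the synthetases was 0.15, -0.04 and 0.13 in controls and -0.16, -0.12 and 0.03 in Sirt1-deficient pancreata, so these groups overlap.

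The neighbouring enzymes of the same metabolic routes gave few calls. Of 22 other serine, glycine and folate genes none passed, with a median of -0.03. The smallest p there was that of Slc25a32, the mitochondrial folate carrier (-0.24, adjusted p = 0.852 from limma). Of 12 other proline, glutamate and aspartate genes 1 was lower. Pycrl, now also named Pycr3, encodes a reductase of the last step of proline synthesis, which takes up the product of the route that Aldh18a1 begins. It read 7.05, 6.84 and 6.95 in controls and 6.42, 6.48 and 6.73 in Sirt1-deficient pancreata, without overlap. The log2 fold change was -0.40 (standard error 0.12, adjusted p = 0.588 from limma), and the call was lost without control pancreas 1 (-0.35) or 3 (-0.40) or Sirt1-deficient pancreas 1 (-0.34) or 2 (-0.37). None of 8 glutathione genes passed. Gclc, the catalytic subunit of the first enzyme of glutathione synthesis, had the smallest p among them (-0.27, adjusted p = 0.843 from limma).

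Of 18 other genes around mTORC1, among them the remaining sestrins and the GATOR and TSC complexes, 1 was higher and none lower. Castor2, a paralog of the arginine sensor Castor1, read 5.99, 5.82 and 5.85 in controls and 6.24, 6.29 and 6.49 in Sirt1-deficient pancreata. These did not overlap, and the log2 fold change was 0.46 (standard error 0.11, adjusted p = 0.427 from limma). The call was lost without control pancreas 3 (0.44) or Sirt1-deficient pancreas 3 (0.38). Of 10 glucocorticoid-induced genes, read because Ddit4 responds to these hormones, 1 was higher, none was lower, and the median was -0.17. The gene that was higher was the metallothionein Mt2 (log2 fold change 0.83, adjusted p = 0.0722 from limma), where 0.739% of all genes tested were higher.

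**Figure D5:**
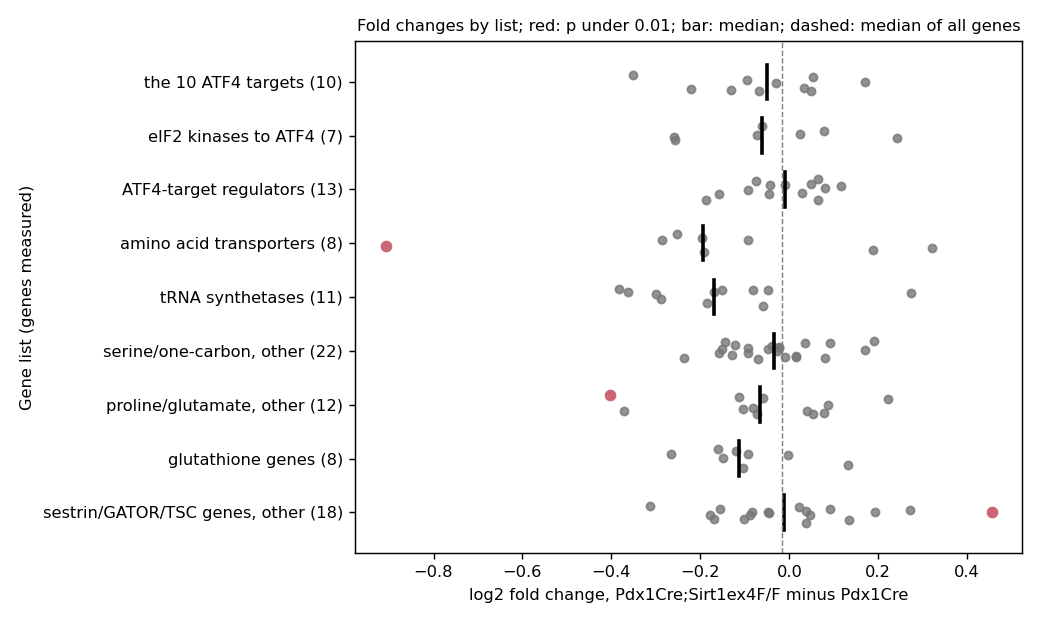
Log2 fold change (horizontal axis, Pdx1Cre;Sirt1ex4F/F minus Pdx1Cre) of every measured gene of the 10 ATF4 targets and of the 8 further lists (vertical axis, with the number of genes measured), 1 point per gene, red at an unadjusted p under 0.01, with a bar at the list median and a dashed line at the median of all genes. The 3 red points are Slc7a11 at -0.91, Pycrl at -0.40 and Castor2 at 0.46.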

How the data were processed

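Total RNA from 6 whole pancreata was hybridized to Affymetrix GeneChip Mouse Gene arrays, 1 pancreas each. The authors deposited log2 values from RMA in the oligo package, which corrects background, applies quantile normalization and gives 1 summary value per transcript cluster. The versions of oligo and RMA were not given in the sources used here. Probe intensities were not analysed here. Of 41345 clusters, 23521 had 1 gene symbol in the platform annotation. Of several clusters for a gene, the brightest on average was used, giving 22180 genes. Symbols were compared with RefSeq genes of GRCm38.p6, and 0 changed.

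Groups were tested in R 4.3.3 by limma 3.58.1 (lmFit, then eBayes, over all genes and without covariates), and genes passed with an unadjusted p under 0.01. Adjusted p-values are Benjamini-Hochberg over all genes. The fit was tested on simulated data. Replicates are separate animals. Precision is limited by having 3 arrays per group. The 10 genes and all lists were chosen with earlier results of these data known, so no list serves as independent support. Genes outside the 10 were named where they passed in their list, as its smallest p where none did, or as the 3 closest profiles, besides Sirt1, Atf4, Ddit3, Trib3 and Slc7a11. Alternatives were other scalings, robust moderation with an intensity trend, a filter on dim genes, single arrays left out, array weights, a block for the replicate number, the mean of a gene's clusters, all clusters in the fit, the first principal component as a covariate, and other thresholds. Same-numbered samples of the groups did not deviate together throughout, so the numbers were not taken as pairs.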

Additional observations from a re-analysis of the deposited data

How the results depend on the processing

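No ATF4 target was higher at p under 0.01 under any of the 15 alternative fits. The count lower was 1 instead of 0 with array weights and at an unadjusted p under 0.05, each time Sesn2, and 0 whichever array was left out. Of 150 refitted fold changes of the 10 genes, 140 kept their direction and their side of the threshold, 9 changed sign and 1 passed. Chac1 was -0.17 with array weights and between -0.29 and 0.31 with single arrays left out. Ddit4 lay between -0.34 and 0.0358, Psat1 between -0.24 and 0.0048, Psph between -0.13 and 0.0767 and Phgdh between -0.0332 and 0.12 with single arrays left out. Ddit3 was -0.0463 with array weights and between -0.15 and 0.29 with arrays left out, and Trib3 between -0.13 and 0.0501. The median of the 10 genes ranged from -0.18 to 0.02 with arrays left out.

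Of the other pathway genes, 2 instead of 1 were higher after a second quantile normalization, above the limit for dim genes and with an intensity trend, and 0 to 1 with arrays left out. The count lower, 2, was 1 after median centring and with all clusters in the fit, 4 after a second quantile normalization, with an intensity trend and with the first principal component, 7 with array weights, and 1 to 5 with arrays left out, 5 without control pancreas 2 or without Sirt1-deficient pancreas 3. The cause was not tested.

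The correlation of deviations between same-numbered pancreata was -0.11, 0.16 and 0.16. With the replicate block, 0 ATF4 targets passed, Sesn2 had an unadjusted limma p of 0.0232, and Pycrl no longer passed, as also after median centring and with all clusters in the fit. Not every pancreas correlated best with its own number. Pathway calls lost with a single array left out were those of Pycrl and Castor2.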

Other observations

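When the search for the closest profiles was limited to genes above the limit for dim genes, a choice made after seeing the data, Chgb, Xlr3a and Ddit3 were again the closest to Chac1. The closest to Ddit4 were then Rrp15, Lilrb4a, an inhibitory receptor of myeloid cells, and H2-Ke6, and the closest to Sesn2 were Rngtt, Pus1, a tRNA pseudouridine synthase, and Nup37, a nuclear pore protein. Lilrb4a read 5.34, 4.78 and 5.38 in controls and 4.82, 4.85 and 5.61 in Sirt1-deficient pancreata, with 1 high and 2 low values in the Sirt1-deficient group as in Ddit4.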
